A study of Mus musculus with 9 samples.

Results

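Chemokine ligands and chemokine receptors were followed across glioma tissue, glioma cells, neural stem cells and astrocytes of the mouse. The 49 genes were those whose array name is Ccl, Cxcl, Ccr or Cxcr followed by a number, out of 34733 genes named on the array. They comprised 19 CC ligands, 13 CXC ligands, 10 CC receptors and 7 CXC receptors, and 62 of the 55666 probes kept. Total RNA was measured on 9 single-colour arrays, 1 per sample. The EZH2-KO glioma tissue (3 arrays) was brain tumour of mosaic analysis with double markers (MADM) mice, labelled as EZH2 knocked out. The MADM glioma cells (2 arrays) were glioma cells of brain tumour from the same strain background, with no EZH2 genotype given. Neural stem cells (2 arrays) and astrocytes (2 arrays) came from brain of normal, wild-type C57BL/6J mice. MADM is a genetic method in which recombination between paired chromosomes makes rare marked mutant cells. The labels used here give no other allele, no promoter or Cre driver, no age and no passage. They also do not say whether the samples of a group came from separate animals or cultures, so the p-values cover the variation among these arrays alone, and it may be technical.

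Chemokines are small secreted proteins that attract cells carrying matching G protein-coupled receptors. Inflammatory members such as Ccl2, Ccl5 and Cxcl10 are made on demand, many of them under the control of NF-kB or interferon, whereas homeostatic members such as Cxcl12 are made steadily. In the brain, microglia and reactive astrocytes are known sources of the inflammatory ligands, and the Cxcl12 axis guides migrating neural progenitors.

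The stretches of 250 bases before the transcription start of 4 ligands are printed because these ligands differed between the groups and 3 of them carry matches to inflammatory promoter motifs. They were chosen after the array values were seen, and all come from RefSeq on GRCm38.p6, 5′ to 3′ on the strand of the gene. Capitals mark matches, on either strand, to the kappaB consensus bound by NF-kB, to an interferon response motif (a pair of GAAA separated by any 2 bases) or to the AP-1 motif TGAGTCA.
Cxcl10, chr5:92348890-92349139, minus strand: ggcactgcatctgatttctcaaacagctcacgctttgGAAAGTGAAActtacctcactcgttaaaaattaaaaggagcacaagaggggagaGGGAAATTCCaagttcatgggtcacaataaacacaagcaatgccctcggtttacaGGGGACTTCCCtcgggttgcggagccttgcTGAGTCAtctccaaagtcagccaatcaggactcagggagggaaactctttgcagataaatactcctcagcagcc
Cxcl1, chr5:90890995-90891244, plus strand: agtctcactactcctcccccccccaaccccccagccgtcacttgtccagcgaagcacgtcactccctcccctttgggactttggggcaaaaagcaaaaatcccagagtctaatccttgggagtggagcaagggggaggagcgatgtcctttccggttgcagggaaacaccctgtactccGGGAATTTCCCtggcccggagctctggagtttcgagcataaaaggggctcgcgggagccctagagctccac
Cxcl2, chr5:90903649-90903898, plus strand: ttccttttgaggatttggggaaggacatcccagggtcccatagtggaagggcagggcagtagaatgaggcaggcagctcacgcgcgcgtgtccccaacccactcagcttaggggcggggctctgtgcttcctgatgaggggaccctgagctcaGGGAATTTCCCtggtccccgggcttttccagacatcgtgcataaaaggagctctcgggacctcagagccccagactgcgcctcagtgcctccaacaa
Ccl12, chr11:82101595-82101844, plus strand: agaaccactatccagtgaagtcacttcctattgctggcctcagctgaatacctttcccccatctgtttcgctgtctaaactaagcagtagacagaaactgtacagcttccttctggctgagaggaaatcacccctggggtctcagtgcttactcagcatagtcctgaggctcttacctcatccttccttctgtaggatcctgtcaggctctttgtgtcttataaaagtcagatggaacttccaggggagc

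The Cxcl10 window held 3 kappaB matches, the later 2 of them overlapping on a single site, with 1 interferon response match and 1 TGAGTCA match. Cxcl1 and Cxcl2 each held 2 overlapping kappaB matches on the same run of letters, and the Ccl12 window held none of the 3 motifs. Of the 34 members with a promoter in the table, 10 held a kappaB match, against 7.25% of all 32851 promoters searched. Among these, Ccl9, Cxcl1, Cxcl2 and Cxcl10 were called different in a comparison below, and Ccl1, Ccl20, Ccr1, Ccr3, Ccr6 and Cxcl3 were not. Members without a promoter there included Ccl4, Ccl5, Ccl7, Cxcl5 and Cxcl16, each called in a comparison below. The interferon response motif was found in 3 members and in 2.98% of all promoters, and TGAGTCA in 3 members and in 4.46% of all promoters. Members were counted as genes, by a match in any listed promoter, whereas the percentages are of promoters, so the units differ. A match describes the letters only.

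Each value below, called a level, is the log2 processed signal of a gene's brightest tested probe minus the 75th percentile of its array. A probe counted as measured where the scanner software called it well above background. The 75th percentile of signal ran from 467 to 1015 intensity units, and 59.5% to 64.8% of probes were measured on an array. The tissue arrays shared 1 slide and scan and the 6 cell arrays shared another, so for tissue against cells the slide and the group cannot be told apart. Tissue and glioma cells also differ in the EZH2 label and in the kind of sample. The Ezh2 probe read 1.70, 1.40 and 1.30 in tissue and 2.87 and 3.08 in glioma cells, measured on all of them. Where it lies relative to the deleted part is not given in the sources used here, so it does not check the label.

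Marker lists were read beside the labels. All 12 oligodendrocyte precursor markers were measured on both glioma cell arrays, all 12 neural stem cell markers on both neural stem cell arrays and all 12 astrocyte markers on both astrocyte arrays. Such detection was not particular to a group. All 3 lists were also complete on every tissue array, the neural stem cell list on both astrocyte arrays, and the other 2 on neural stem cell array 1. Of the astrocyte markers, 0 of 12 were called in either direction between neural stem cells and astrocytes. The astrocyte arrays also carried all 16 microglia and macrophage markers, at a mean level of 2.85 and 3.28, close to the 2.95, 3.90 and 2.73 of tissue. That list averaged -3.97 and -3.57 in glioma cells, where Aif1, Ctss, C1qa, C1qc, Trem2 and Laptm5 were not measured on either array, and -0.70 and -2.36 in neural stem cells. Fibroblast and meningeal markers averaged 1.59 on astrocyte array 1 and 5.02 on astrocyte array 2. On glioma cell array 1 Sox2, Prom1 and Pax6 were not measured, whereas array 2 measured all 12 neural stem cell markers. Lymphocyte markers stayed low in each group, with means between -4.84 and -3.74 and 5 to 10 of 15 measured on an array, and Ms4a1 and Ncr1 were measured on none. Neutrophil markers ran between -4.72 and -3.81, with Ngp, Retnlg and Ltf measured on no array. In RNA from mixed cells, fewer cells of a type and less RNA per cell cannot be told apart.

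Detection already separated the groups. Of the 49 members, 29 were measured on every tissue array, 14 on both glioma cell arrays, 16 on both neural stem cell arrays and 32 on both astrocyte arrays. At the other end, 13 members were measured on no tissue array, 26 on no glioma cell array, 25 on no neural stem cell array and 13 on no astrocyte array. Ccl1, Ccl2, Ccl5, Ccl19, Ccl25, Ccr8, Cxcl11, Cxcl12, Cxcl14, Cxcl16, Cxcr4, Cxcr6 and Cxcr7 were measured on all 9 arrays. The 7 members measured on none were the ligands Ccl20, Ccl22 and Cxcl3 and the receptors Ccr1, Cxcr1, Cxcr2 and Cxcr5. Another 8 were measured on a single array. In the heat map of levels, the unmeasured cells gather in the columns of glioma cells and neural stem cells.

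**Figure D1:**
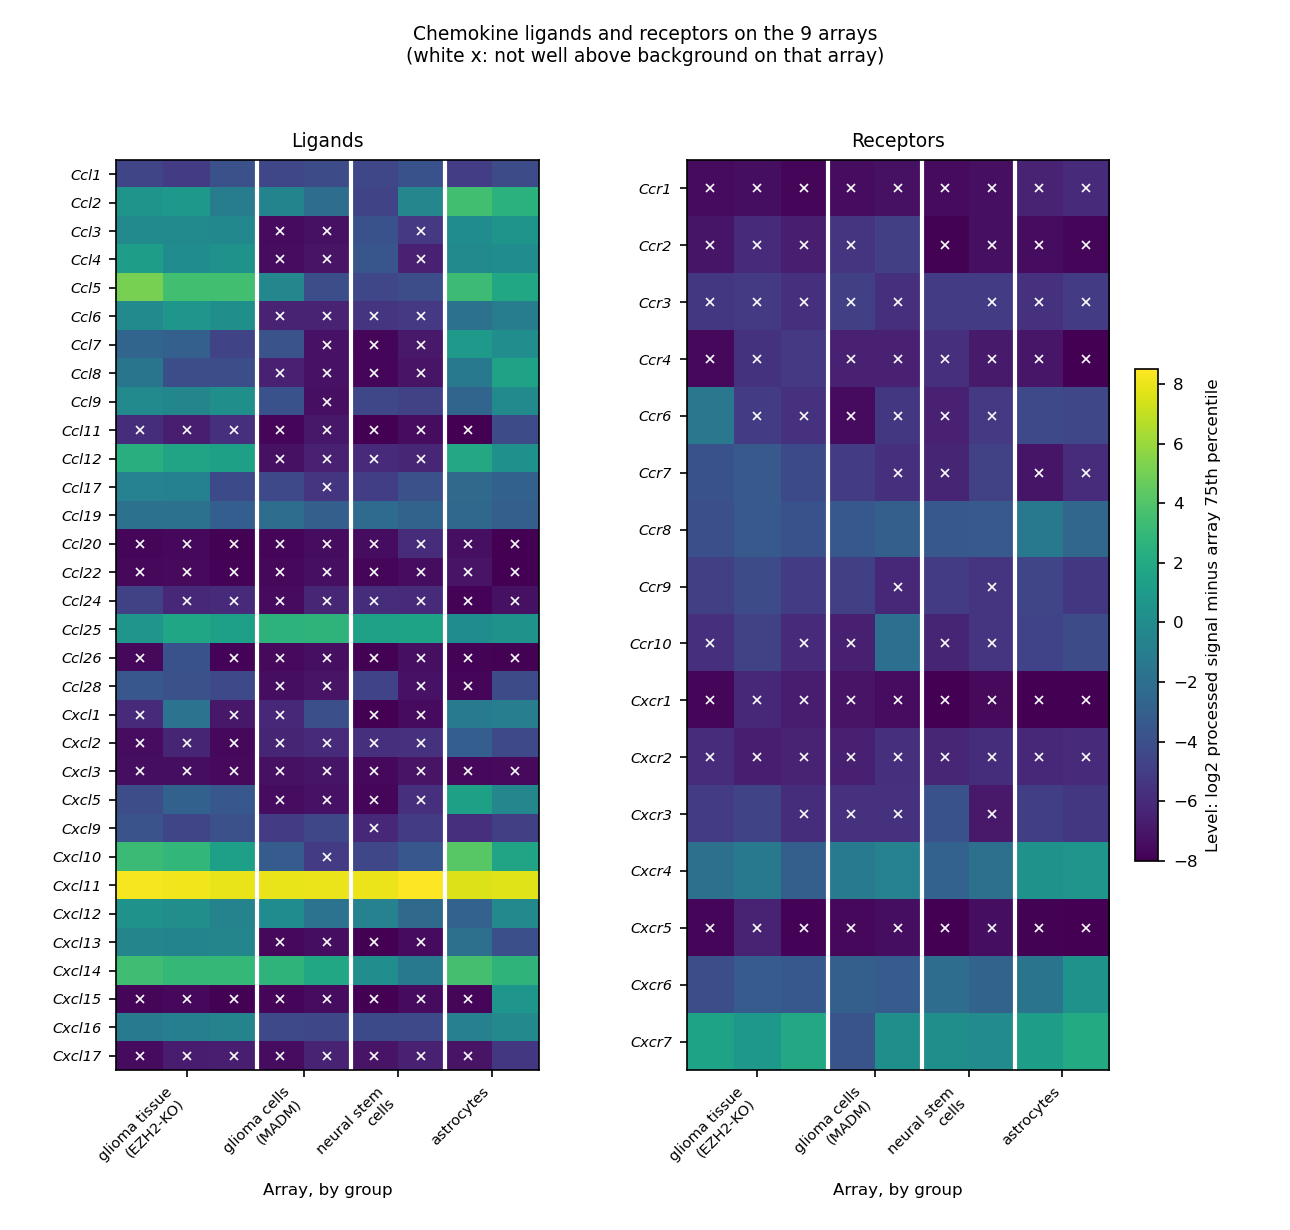
Level (colour, log2 processed signal minus the array's 75th percentile) of chemokine genes (rows, ligands left and receptors right) on the 9 arrays (columns, grouped as tissue, glioma cells, neural stem cells and astrocytes); a white cross marks a gene not well above background on that array. Both glioma cell arrays measured 14 members, and both astrocyte arrays measured 32.

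Tests were limited to genes that all arrays of some group in the fit measured, which held for 32 members among the 6 cell arrays and 34 among all 9. The other 15 members were not tested in either fit. A member that entered only through the group in which it is high had to differ, so the counts below describe these arrays and support nothing further. Differences were tested with limma across all genes, and a gene was called when its Benjamini-Hochberg adjusted p was below 0.05 and it differed 2-fold or more. Where no array of a group measured a gene, the fold is called a bound and given as "at least". The brighter group's mean was set against the dimmer group's mean after raising each of its arrays to the lowest level measured on that array, -6.43 to -5.23. Readings already above that level were kept. A bound is not a strict limit, since an unmeasured gene can read above that level, as Ccr3 did at -5.30 on tissue array 1 (lowest measured level -6.43). Where only some arrays of a group measured it, the fold uses the values as read. Folds and bounds hold for the processed signals. With normexp background correction, which adds an offset, 12 of the 69 calls were lost, and the fold was below the bound for all 34 bounded calls.

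Ccl12, Ccl2, Ccl7 and Ccl8 are encoded in a block of chromosome 11 that also holds Ccl11 and Ccl1. Ccl12, a mouse ligand of Ccr2 whose probe lies at chr11:81916764-81916823 of mm9, had levels of 2.41, 1.64 and 1.40 in tissue, -7.24 and -6.46 in glioma cells, -6.02 and -6.21 in neural stem cells, and 1.99 and 0.31 in astrocytes. Tissue and astrocytes overlapped, and every one of their arrays lay above all glioma cell and neural stem cell arrays, none of which measured the gene. It was at least 100-fold lower in glioma cells than in astrocytes (limma adjusted p = 0.00329) and at least 99.1-fold lower in neural stem cells than in astrocytes (adjusted p = 0.00572). It was at least 159-fold higher in tissue than in glioma cells (adjusted p = 0.000292) and at least 157-fold higher in tissue than in neural stem cells (adjusted p = 0.000569). No array left out ended any of these 4 calls. The bounds against astrocytes were 56.1 and 55.4 without astrocyte array 1 and 179 and 177 without astrocyte array 2, and normexp gave 17.4-fold and 16.8-fold.

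Ccl2, the best known monocyte attractant, was measured throughout, at 0.57, 0.80 and -1.04 in tissue, -0.58 and -2.08 in glioma cells, -4.61 and -0.38 in neural stem cells, and 3.52 and 2.54 in astrocytes. Both astrocyte arrays were above all others, and the neural stem cell arrays lay far apart. None of its 6 comparisons was called: the log2 difference was -4.36 (SE 1.43) for glioma cells against astrocytes (adjusted p = 0.0883) and -5.52 (SE 1.43) for neural stem cells against astrocytes (adjusted p = 0.0595). In the fit of all 9 arrays these differences were called lower (adjusted p = 0.0457 for glioma cells and 0.0251 for neural stem cells). With normexp both were called too (adjusted p = 0.0346 and 0.028), and without scaling between arrays the second was (adjusted p = 0.0399). The first was also called without either neural stem cell array, and the second without neural stem cell array 2, at -7.64.

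Ccl7, which attracts monocytes, read -2.65, -2.94 and -4.59 in tissue, -3.75 and -7.21 in glioma cells, -7.77 and -6.89 in neural stem cells, and 0.92 and 0.08 in astrocytes. Astrocytes stood above every other array, and glioma cell array 1 measured the gene where array 2 did not. It was 63.1-fold lower in glioma cells than in astrocytes (log2 difference -5.98, SE 1.15, adjusted p = 0.0262) and 14.9-fold lower in tissue than in astrocytes (log2 difference -3.89, SE 1.02, adjusted p = 0.0299). With glioma cell array 2 raised to the lowest level measured on it the first fold was 35.5, and it was 19.0 without that array and 209.5 without glioma cell array 1. The second was 9.81 without tissue array 3. Each call was lost when any of 4 or 5 single arrays was left out, among them each astrocyte array (adjusted p up to 0.111 for glioma cells and 0.145 for tissue), and the tissue call also with the replicate block (adjusted p = 0.0867). Neural stem cells were at least 63.2-fold lower than astrocytes (adjusted p = 0.0165), lost without either array of either group (adjusted p up to 0.0758). Against neural stem cells, tissue was at least 4.25-fold higher (adjusted p = 0.0339), lost without any of 5 arrays (adjusted p up to 0.124), and with normexp background correction this difference was 0.64 and not called (adjusted p = 0.312).

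Ccl8, in mouse a ligand of Ccr8, had levels of -1.58, -4.06 and -4.03 in tissue, -6.51 and -7.17 in glioma cells, -7.69 and -7.15 in neural stem cells, and -1.32 and 1.49 in astrocytes. Astrocytes were highest, tissue was between, and no glioma cell or neural stem cell array measured it. In glioma cells it was at least 47.8-fold lower than in astrocytes (adjusted p = 0.0105), a call kept without each array, and in neural stem cells at least 47.3-fold lower (adjusted p = 0.0111), a call that leaving out the second neural stem cell array ended (adjusted p = 0.0614). These bounds were 18.1 and 17.9 without astrocyte array 2 and 126 and 125 without astrocyte array 1. Tissue was 9.88-fold lower than astrocytes (log2 difference -3.31, SE 0.98, adjusted p = 0.0461) and at least 4.78-fold higher than neural stem cells (adjusted p = 0.0247). The first of these was lost without any of 7 arrays (adjusted p up to 0.248) and with the replicate block (adjusted p = 0.163), and its fold ran from 3.74 without astrocyte array 2 to 26.1 without astrocyte array 1. The second was lost on leaving out either of the neural stem cell arrays (adjusted p up to 0.102), with normexp (difference 0.80, adjusted p = 0.452) and with the replicate block (adjusted p = 0.0655). The rise in tissue over glioma cells was at least 4.84-fold (adjusted p = 0.0414), and was lost on leaving out any of 7 arrays, all except those of astrocytes (adjusted p up to 0.164), and with normexp (difference 0.68, adjusted p = 0.532). Without tissue array 1 the bounds over glioma cells and neural stem cells were 2.74 and 2.71.

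Ccl3, Ccl4, Ccl5, Ccl6 and Ccl9 form the neighbouring block of chromosome 11. Ccl3, a macrophage inflammatory protein and a ligand of Ccr1, read -0.13, -0.16 and -0.30 in tissue, -7.53 and -7.25 in glioma cells, -3.87 and -5.28 in neural stem cells, and 0.01 and 0.51 in astrocytes. Its tissue arrays lay within 0.2 of each other just under the astrocytes, and neural stem cell array 1 measured it while neural stem cell array 2 and both glioma cell arrays did not. It was at least 53.9-fold lower in glioma cells than in astrocytes (adjusted p = 0.00288) and 28.5-fold lower in neural stem cells than in astrocytes (log2 difference -4.83, SE 0.53, adjusted p = 0.00864). Tissue was at least 39.4-fold above glioma cells (adjusted p = 0.000220) and 20.8-fold above neural stem cells (log2 difference 4.38, SE 0.42, adjusted p = 0.00112). Without neural stem cell array 2, which did not measure it, the folds against astrocytes and tissue were 17.4 and 12.7, and without array 1 they were 46.6 and 34.0. For glioma cells against neural stem cells the fitted difference was not called in the cell arrays (adjusted p = 0.101) and was called lower in the fit of all 9 arrays (adjusted p = 0.0327).

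Ccl4, also a macrophage inflammatory protein, followed with 1.17, 0.04 and 0.42 in tissue, -7.42 and -7.16 in glioma cells, -3.58 and -6.51 in neural stem cells, and -0.13 and 0.03 in astrocytes. Tissue lay above astrocytes on every array, though by less than the spread within tissue, and glioma cells did not measure it. It was at least 43.5-fold lower in glioma cells than in astrocytes (adjusted p = 0.00955), and this call was lost without astrocyte array 2 (adjusted p = 0.050). Neural stem cells were 31.8-fold lower than astrocytes (log2 difference -4.99, SE 0.94, adjusted p = 0.0292), lost without any glioma cell or astrocyte array (adjusted p up to 0.114). Tissue exceeded glioma cells at least 65.7-fold (adjusted p = 0.00111) and neural stem cells 48.0-fold (log2 difference 5.59, SE 0.77, adjusted p = 0.00405). Neural stem cell array 2 did not measure it, and raised to the lowest level measured on it gave 20.4-fold against astrocytes and 30.8-fold for tissue. Without that array these folds were 11.5 and 17.4, and without neural stem cell array 1 they were 87.9 and 133.

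Ccl5, an attractant of T cells and monocytes, read 5.09, 3.54 and 3.54 in tissue, -0.34 and -4.04 in glioma cells, -4.52 and -4.09 in neural stem cells, and 3.31 and 1.86 in astrocytes. Every tissue array was above every other array, and glioma cell array 1 stood far above array 2. The log2 difference of tissue was 6.24 (SE 1.05, adjusted p = 0.00824) against glioma cells, a 75.7-fold rise, and 8.36 (SE 1.05, adjusted p = 0.00283) against neural stem cells, a 328-fold rise. The first was 21.0-fold without glioma cell array 2 and 274-fold without glioma cell array 1. Neural stem cells were 119-fold below astrocytes (log2 difference -6.89, SE 1.26, adjusted p = 0.0272), and that call was lost on leaving out either array of either group (adjusted p up to 0.112), with folds of 71.8 and 197 without astrocyte arrays 1 and 2. Glioma cells against astrocytes gave -4.78 (SE 1.26, adjusted p = 0.0541), not called, and -6.63 when glioma cell array 1 was left out. It was called in the fit of all 9 arrays (adjusted p = 0.0225) and with normexp (difference -3.95, adjusted p = 0.0274). It was also called without scaling between arrays (adjusted p = 0.0449), with the replicate block (adjusted p = 0.0465) and with only probes measured on every array of the fit (adjusted p = 0.0490).

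Ccl6 and Ccl9 are rodent ligands of Ccr1. Ccl6 had -0.19, 0.70 and 0.20 in tissue, -6.45 and -6.40 in glioma cells, -5.51 and -5.25 in neural stem cells, and -1.86 and -1.10 in astrocytes. Tissue was above astrocytes without overlap, and the other cells did not measure it. It was the only member of this block called between tissue and astrocytes, 3.28-fold higher in tissue (log2 difference 1.72, SE 0.35, adjusted p = 0.0134), and that call was lost without astrocyte array 1 (adjusted p = 0.0858). Glioma cells were at least 16.2-fold lower than astrocytes (adjusted p = 0.00291), and neural stem cells at least 14.8-fold lower (adjusted p = 0.00620). Tissue was at least 53.1-fold higher than glioma cells (adjusted p = 0.000164) and at least 48.7-fold higher than neural stem cells (adjusted p = 0.000441). Ccl9 read -0.14, -0.44 and 0.22 in tissue, -3.83 and -7.34 in glioma cells, -4.47 and -4.75 in neural stem cells, and -2.62 and -0.08 in astrocytes. Tissue exceeded glioma cells 44.1-fold (log2 difference 5.46, SE 1.05, adjusted p = 0.0134) and neural stem cells 22.5-fold (log2 difference 4.49, SE 1.05, adjusted p = 0.0249) with no overlap, the second lost on leaving out any array of either group (adjusted p up to 0.129). Glioma cell array 2 did not measure it: the first fold was 23.7 with that array raised to the lowest level measured on it, and the log2 difference was 3.70 without it and 7.22 without glioma cell array 1. With the replicate block neither was called (adjusted p = 0.0612 and 0.0949). Glioma cells against astrocytes were not called (log2 difference -4.24, SE 1.36, adjusted p = 0.0838), but were without glioma cell array 1 and in the fit of all 9 arrays (adjusted p = 0.0337).

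Ccl17, a ligand of Ccr4, read -0.65, -0.74 and -4.32 in tissue, -4.36 and -5.48 in glioma cells, -4.93 and -3.93 in neural stem cells, and -2.27 and -2.89 in astrocytes. Tissue array 3 lay just above the higher glioma cell array, and the other tissue arrays lay far above it. The lower value in glioma cells than in astrocytes (log2 difference -2.34, SE 0.56, adjusted p = 0.0441) was lost with any 1 of the 6 cell arrays left out (adjusted p up to 0.167). It was also lost with normexp (difference -0.76, adjusted p = 0.124), in the fit of all 9 arrays (adjusted p = 0.181), with no filter (adjusted p = 0.0608) and with the replicate block (adjusted p = 0.0660). Tissue against glioma cells was 3.01 (SE 1.08, adjusted p = 0.0904), not called, and 4.22 with a call without tissue array 3.

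Ccl25, a ligand of Ccr9 known from thymus and gut, ran opposite to the inflammatory ligands. Its levels were 0.58, 1.72 and 1.33 in tissue, 2.65 and 2.73 in glioma cells, 1.46 and 1.57 in neural stem cells, and 0.04 and 0.43 in astrocytes. Both glioma cell arrays were above all others and both astrocyte arrays were below all others. It was 5.51-fold higher in glioma cells than in astrocytes (log2 difference 2.46, SE 0.28, adjusted p = 0.00708), a call kept without each array. Of its 4 probes, 3 gave differences of 2.46 to 3.52 in that comparison, and 1 was measured on no array. Tissue was 2.79-fold lower than glioma cells (log2 difference -1.48, SE 0.36, adjusted p = 0.0291), and neural stem cells were 2.43-fold higher than astrocytes (log2 difference 1.28, SE 0.28, adjusted p = 0.0408). The tissue call was lost on leaving out tissue array 3 or a glioma cell array (adjusted p up to 0.117), and the neural stem cell call was lost without any 1 cell array (adjusted p up to 0.152). Without scaling between arrays neither was called (differences -0.90 and 0.84, adjusted p = 0.238 and 0.214), nor with the replicate block (adjusted p = 0.0589 and 0.0602). The tissue call was also lost with quantile normalization (adjusted p = 0.0629) and with only the arrays of the 2 groups (adjusted p = 0.0502), and the neural stem cell call with no filter (adjusted p = 0.0641) and in the fit of all 9 arrays (adjusted p = 0.0537). The measured receptor partner Ccr9 ran from -6.09 to -4.15 over the 9 arrays and was called in no comparison.

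The remaining CC ligands changed little or were seldom measured. Ccl19, the ligand of Ccr7 that guides dendritic cells and T cells, read -1.77, -1.80 and -3.04 in tissue, -2.11 and -3.02 in glioma cells, -2.21 and -2.73 in neural stem cells, and -2.47 and -3.03 in astrocytes, and the groups overlapped. Its 3 probes did not give 1 picture, since the difference of tissue from astrocytes was 0.54, 1.03 or 3.60 by probe. Ccl1, a ligand of Ccr8, ran from -5.05 to -3.85 with no call. Ccl28, a mucosal ligand of Ccr10, was measured on all 3 tissue arrays and on no glioma cell array, and was not called (adjusted p = 0.0637), though it was without either astrocyte array and in the fit of tissue and glioma cells alone (adjusted p = 0.00397). The eotaxins Ccl11, Ccl24 and Ccl26 were each measured on 1 array: astrocyte array 2 at -4.20, tissue array 1 at -4.81 and tissue array 2 at -3.86. Ccl20, the ligand of Ccr6, had levels of -7.78, -7.66 and -7.93 in tissue, -7.77 and -7.46 in glioma cells, -7.43 and -5.92 in neural stem cells, and -7.34 and -8.12 in astrocytes, none of them measured.

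Among CXC ligands, Cxcl1, Cxcl2 and Cxcl5 are neutrophil attractants that act through Cxcr2. Cxcl5 read -4.13, -2.87 and -3.51 in tissue, -7.42 and -7.22 in glioma cells, -7.78 and -5.70 in neural stem cells, and 1.38 and -0.38 in astrocytes. The order astrocytes, tissue, then both other cell groups held on every array. It was at least 63.8-fold lower in glioma cells than in astrocytes (adjusted p = 0.00682) and at least 63.1-fold lower in neural stem cells than in astrocytes (adjusted p = 0.0104). These bounds were 34.8 and 34.4 without astrocyte array 1 and 117 and 116 without astrocyte array 2. Tissue was 16.1-fold lower than astrocytes (log2 difference -4.01, SE 0.74, adjusted p = 0.00891), lost without astrocyte array 1 (8.75-fold, adjusted p = 0.0559). Tissue was at least 3.97-fold higher than glioma cells (adjusted p = 0.0134), lost without either glioma cell array (adjusted p up to 0.0720), with normexp (difference 0.53, adjusted p = 0.459) and with the replicate block (adjusted p = 0.0550). Against neural stem cells it was at least 3.93-fold higher (adjusted p = 0.0227), lost on leaving out tissue array 2 or 3 or the first of the neural stem cell arrays (adjusted p up to 0.0910), with normexp (difference 0.43, adjusted p = 0.544) and with the replicate block (adjusted p = 0.0788).

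Cxcl1, whose promoter is shown above, had levels of -5.98, -1.74 and -6.91 in tissue, -6.14 and -4.0 in glioma cells, -8.02 and -7.50 in neural stem cells, and -1.23 and -0.97 in astrocytes. Tissue array 2 and glioma cell array 2 measured it and their partners did not. Glioma cells were 15.7-fold lower than astrocytes (log2 difference -3.97, SE 0.73, adjusted p = 0.0230), a call lost without either astrocyte array (adjusted p up to 0.0966) and in the fit of all 9 arrays (adjusted p = 0.0972). With glioma cell array 1 raised to the lowest level measured on it the fold was 12.3, and it was 7.45 without that array and 32.9 without glioma cell array 2. Neural stem cells were at least 20.8-fold lower than astrocytes (adjusted p = 0.00848), a call kept without each array. Tissue against astrocytes gave -3.77 (SE 1.41, adjusted p = 0.0908), not called, and -5.34 with a call without tissue array 2.

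Cxcl2 was measured on the astrocyte arrays only, at -3.08 and -4.37, while it read -7.46, -6.31 and -7.64 in tissue, -6.27 and -6.03 in glioma cells and -5.70 and -5.63 in neural stem cells. The lower levels have no order, as none of those arrays measured it. Tissue was at least 5.29-fold lower than astrocytes (adjusted p = 0.00418), and no array left out ended that call, with a bound of 3.38 when astrocyte array 1 was left out and of 8.28 when astrocyte array 2 was. Glioma cells were at least 3.41-fold lower than astrocytes (adjusted p = 0.0273), but 5 of the 6 cell arrays ended that call when left out, all except astrocyte array 2 (adjusted p up to 0.10), and normexp ended it too (difference -0.42, adjusted p = 0.373). Its bound was 2.18 without astrocyte array 1 and 5.33 without astrocyte array 2.

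Cxcl9, Cxcl10 and Cxcl11 are interferon-inducible ligands of Cxcr3, encoded together on chromosome 5. Cxcl10 read 3.24, 2.96 and 1.33 in tissue, -3.18 and -5.07 in glioma cells, -4.52 and -3.49 in neural stem cells, and 4.20 and 1.62 in astrocytes. Tissue overlapped with astrocytes, and both stood clear of the other cells. It was 131-fold lower in glioma cells than in astrocytes (log2 difference -7.03, SE 1.06, adjusted p = 0.0139), a call lost without glioma cell array 2 (adjusted p = 0.0501), and its second probe gave -4.02. Neural stem cells were 121-fold lower than astrocytes (log2 difference -6.91, SE 1.06, adjusted p = 0.0179), a call lost on leaving out an array of theirs or astrocyte array 1 (adjusted p up to 0.0762). The rise in tissue was 99.2-fold over glioma cells (log2 difference 6.63, SE 0.95, adjusted p = 0.00434) and 91.3-fold over neural stem cells (log2 difference 6.51, SE 0.95, adjusted p = 0.00481), both kept without each array. Folds against astrocytes were 53.7 and 49.5 without astrocyte array 1 and 319 and 294 without astrocyte array 2. Without glioma cell array 2, which did not measure this probe, glioma cells were 68.0-fold below astrocytes and tissue was 51.4-fold above glioma cells; without glioma cell array 1 these folds were 253 and 191. Without tissue array 3 the rises in tissue were 149-fold and 137-fold.

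Cxcl9 had levels of -3.80, -4.55 and -3.89 in tissue, -5.10 and -4.46 in glioma cells, -6.17 and -5.16 in neural stem cells, and -5.78 and -4.87 in astrocytes. Tissue was highest and overlapped with glioma cells alone. Tissue was 3.00-fold higher than neural stem cells (log2 difference 1.59, SE 0.45, adjusted p = 0.0469), and leaving out any 1 of the 9 arrays ended the call (adjusted p up to 0.193). It was also lost with normexp (difference 0.16, adjusted p = 0.651), with no filter (adjusted p = 0.0629), with the replicate block (adjusted p = 0.119) and with only the arrays of the 2 groups (adjusted p = 0.0562). The second probe of Cxcl9 gave 3.48 in that comparison. Cxcl11 ran from 7.60 to 8.49 by its brightest probe and was called in no comparison. Its other probe ran from 0.97 to 4.08, and the difference of tissue from glioma cells was 0.16 by the first probe and -2.55 by the other, so its direction depends on the probe.

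Cxcl13, the B cell attractant that binds Cxcr5, read -0.51, -0.52 and -0.41 in tissue, -7.67 and -7.39 in glioma cells, -8.02 and -7.50 in neural stem cells, and -1.88 and -3.99 in astrocytes. Tissue arrays were nearly level and above both astrocyte arrays, and the other cells did not measure it. It was 5.48-fold higher in tissue than in astrocytes (log2 difference 2.45, SE 0.56, adjusted p = 0.0187), lost without tissue array 3 (adjusted p = 0.0546) and with the replicate block (adjusted p = 0.0756), and at least 32.3-fold higher in tissue than in glioma cells (adjusted p = 0.000588). Glioma cells were at least 5.90-fold lower than astrocytes (adjusted p = 0.0153), lost without either glioma cell array (adjusted p up to 0.0572) and with normexp (difference -1.11, adjusted p = 0.146). Neural stem cells were at least 5.83-fold lower than astrocytes (adjusted p = 0.0168), lost without either of their arrays (adjusted p up to 0.0758) and with normexp (difference -1.19, adjusted p = 0.134), and tissue was at least 31.9-fold above them (adjusted p = 0.000683). Without astrocyte array 1 the bounds against astrocytes were 2.84 and 2.81 and tissue was 11.4-fold above astrocytes; without astrocyte array 2 they were 12.2 and 12.1, and tissue was 2.64-fold above.

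Cxcl14, a homeostatic ligand, was measured on every array, at 3.41, 3.02 and 2.99 in tissue, 2.76 and 1.83 in glioma cells, 0.07 and -1.35 in neural stem cells, and 3.64 and 2.72 in astrocytes. Only neural stem cells stood apart. They were 14.1-fold lower than astrocytes (log2 difference -3.82, SE 0.64, adjusted p = 0.0223), lost on leaving out an astrocyte array or the second array of their own (adjusted p up to 0.0902), and tissue was 13.7-fold higher than they were (log2 difference 3.78, SE 0.51, adjusted p = 0.00375). Without neural stem cell array 2 these folds were 8.64 and 8.39, and without array 1 they were 23.2 and 22.5. Glioma cells exceeded neural stem cells by 2.93 (SE 0.64, adjusted p = 0.129), not called in the cell arrays and called in the fit of all 9 arrays (adjusted p = 0.0498).

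Cxcl16, a membrane-bound ligand of Cxcr6, was measured on every array and read -1.12, -0.86 and -0.62 in tissue, -4.34 and -4.41 in glioma cells, -4.28 and -4.37 in neural stem cells, and -0.80 and -0.22 in astrocytes. Tissue and astrocytes formed one band and the other cells a second. It was 14.6-fold lower in glioma cells than in astrocytes (log2 difference -3.87, SE 0.31, adjusted p = 0.00338) and 14.1-fold lower in neural stem cells than in astrocytes (log2 difference -3.82, SE 0.31, adjusted p = 0.00531). Tissue was 11.4-fold higher than glioma cells (log2 difference 3.51, SE 0.28, adjusted p = 0.000588) and 11.0-fold higher than neural stem cells (log2 difference 3.46, SE 0.28, adjusted p = 0.000697). All 4 calls were kept without each array.

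Cxcl12, the steady ligand that guides progenitors and blood cells, read 0.51, 0.18 and -0.59 in tissue, -0.0024 and -1.75 in glioma cells, -0.66 and -2.32 in neural stem cells, and -2.78 and -0.25 in astrocytes. The groups overlapped and no comparison was called; tissue against glioma cells gave 0.91 (adjusted p = 0.503). Its other probe, for transcript variant 1, gave -3.95 for glioma cells against astrocytes where the brightest probe, for variant 3, gave 0.64, so a direction depends on the probe. Of the remaining CXC ligands, Cxcl15, a neutrophil attractant of lung epithelium, read 0.67 on astrocyte array 2 and was not measured on any other array, where it ran from -8.05 to -7.45. Cxcl17 was measured on 1 astrocyte array, at -5.33.

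Receptors came next. Cxcr4, the signalling receptor of Cxcl12, read -1.93, -1.32 and -2.99 in tissue, -1.18 and -0.68 in glioma cells, -2.81 and -1.91 in neural stem cells, and 0.47 and 0.61 in astrocytes. Both astrocyte arrays were above all others, and glioma cells came next. Tissue was 6.15-fold lower than astrocytes (log2 difference -2.62, SE 0.51, adjusted p = 0.0111) and neural stem cells were 7.46-fold lower than astrocytes (log2 difference -2.90, SE 0.40, adjusted p = 0.0144). Leaving out either astrocyte array ended both calls (adjusted p up to 0.0605 and 0.0703). Glioma cells against astrocytes gave -1.47 (SE 0.40, adjusted p = 0.0598), not called, and was called without either neural stem cell array, without scaling between arrays (adjusted p = 0.0186) and with normexp (adjusted p = 0.0379).

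Cxcr7, now named Ackr3, takes up Cxcl12 without classical G protein signalling. It read 1.58, 0.77 and 1.98 in tissue, -3.68 and 0.22 in glioma cells, 0.21 and -0.01 in neural stem cells, and 1.19 and 2.07 in astrocytes. Tissue and astrocytes overlapped above the other cells, and the glioma cell arrays lay 3.90 apart. No comparison was called: tissue against glioma cells gave 3.18 (SE 1.01, adjusted p = 0.0657), and 5.12 with a call without glioma cell array 2.

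Cxcr6, the receptor of Cxcl16 known from T cells, read -4.02, -3.20 and -3.43 in tissue, -3.00 and -3.21 in glioma cells, -2.07 and -2.73 in neural stem cells, and -1.64 and 0.48 in astrocytes. Astrocytes were highest and tissue lowest, with a small overlap between tissue and glioma cells. Tissue was 7.82-fold lower than astrocytes (log2 difference -2.97, SE 0.60, adjusted p = 0.0126), a call kept without each array, with folds of 16.3 and 3.75 without astrocyte arrays 1 and 2, and the second probe gave -2.99. Glioma cells against astrocytes gave -2.52 (SE 0.73, adjusted p = 0.0665) and were not called, but were without astrocyte array 1 and in the fit of all 9 arrays (adjusted p = 0.0288).

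Ccr8, the receptor of Ccl1 and in mouse of Ccl8, read -3.98, -3.36 and -3.86 in tissue, -3.46 and -3.03 in glioma cells, -3.43 and -3.42 in neural stem cells, and -1.32 and -2.55 in astrocytes. Astrocytes were above all other arrays. Tissue was 3.48-fold lower than astrocytes (log2 difference -1.80, SE 0.40, adjusted p = 0.0178), a call lost on leaving out tissue array 1 or 3 or the first astrocyte array (adjusted p up to 0.0943), with normexp (difference -1.01, adjusted p = 0.0571) and with the replicate block (adjusted p = 0.0827). Its fold was 2.28 without astrocyte array 1 and 5.31 without astrocyte array 2. Ccr7, the receptor of Ccl19, read -3.81, -3.39 and -4.28 in tissue, -5.11 and -5.68 in glioma cells, -6.28 and -4.79 in neural stem cells, and -7.07 and -5.87 in astrocytes. Every tissue array was above every other array, and astrocytes did not measure it. Tissue was at least 3.87-fold higher than astrocytes (adjusted p = 0.0144), a call lost without astrocyte array 1 (adjusted p = 0.0893) and with normexp (difference 0.65, adjusted p = 0.133).

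Several receptors of the printed or called ligands were near background. Ccr2, the receptor of Ccl2, Ccl7 and Ccl12, read -7.10, -5.97 and -6.60 in tissue, -5.54 and -4.87 in glioma cells, -7.87 and -7.32 in neural stem cells, and -7.45 and -7.72 in astrocytes, and only glioma cell array 2 measured it. Cxcr3, the receptor of Cxcl9, Cxcl10 and Cxcl11, read -5.05, -4.63 and -5.82 in tissue, -5.68 and -5.63 in glioma cells, -3.83 and -6.84 in neural stem cells, and -4.91 and -5.32 in astrocytes, with no call. Cxcr2, the receptor of Cxcl1, Cxcl2 and Cxcl5, ran from -6.62 to -5.76 and was measured on no array. Cxcr5, the receptor of Cxcl13, ran from -7.99 to -6.34 and was likewise measured on none.

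Ccr6, the receptor of Ccl20, was measured on tissue array 1, at -1.40, where tissue arrays 2 and 3 read -5.16 and -5.62. It read -7.50 and -5.29 in glioma cells, -6.46 and -5.25 in neural stem cells, and -4.39 and -4.48 in astrocytes, the only group to measure it on every array, and it had no call. Ccr10, a receptor of Ccl28, was measured on glioma cell array 2 at -1.95 against -6.56 on glioma cell array 1. In the plot of ligand and receptor pairs, Cxcl10, Cxcl13, Cxcl16, Ccr7 and Cxcr7 were higher on every tissue array than in glioma cells. Cxcr4 was lower on every tissue array, while Ccl2, Ccl19, Cxcl1, Cxcl12, Cxcr3 and Cxcr6 overlapped. Of all these genes, only Cxcl10, Cxcl13 and Cxcl16 were called in that comparison. Ccr2 was measured on glioma cell array 2 alone, and Cxcr2 and Cxcr5 on no array. Levels of different probes are not set against each other there.

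**Figure D2:**
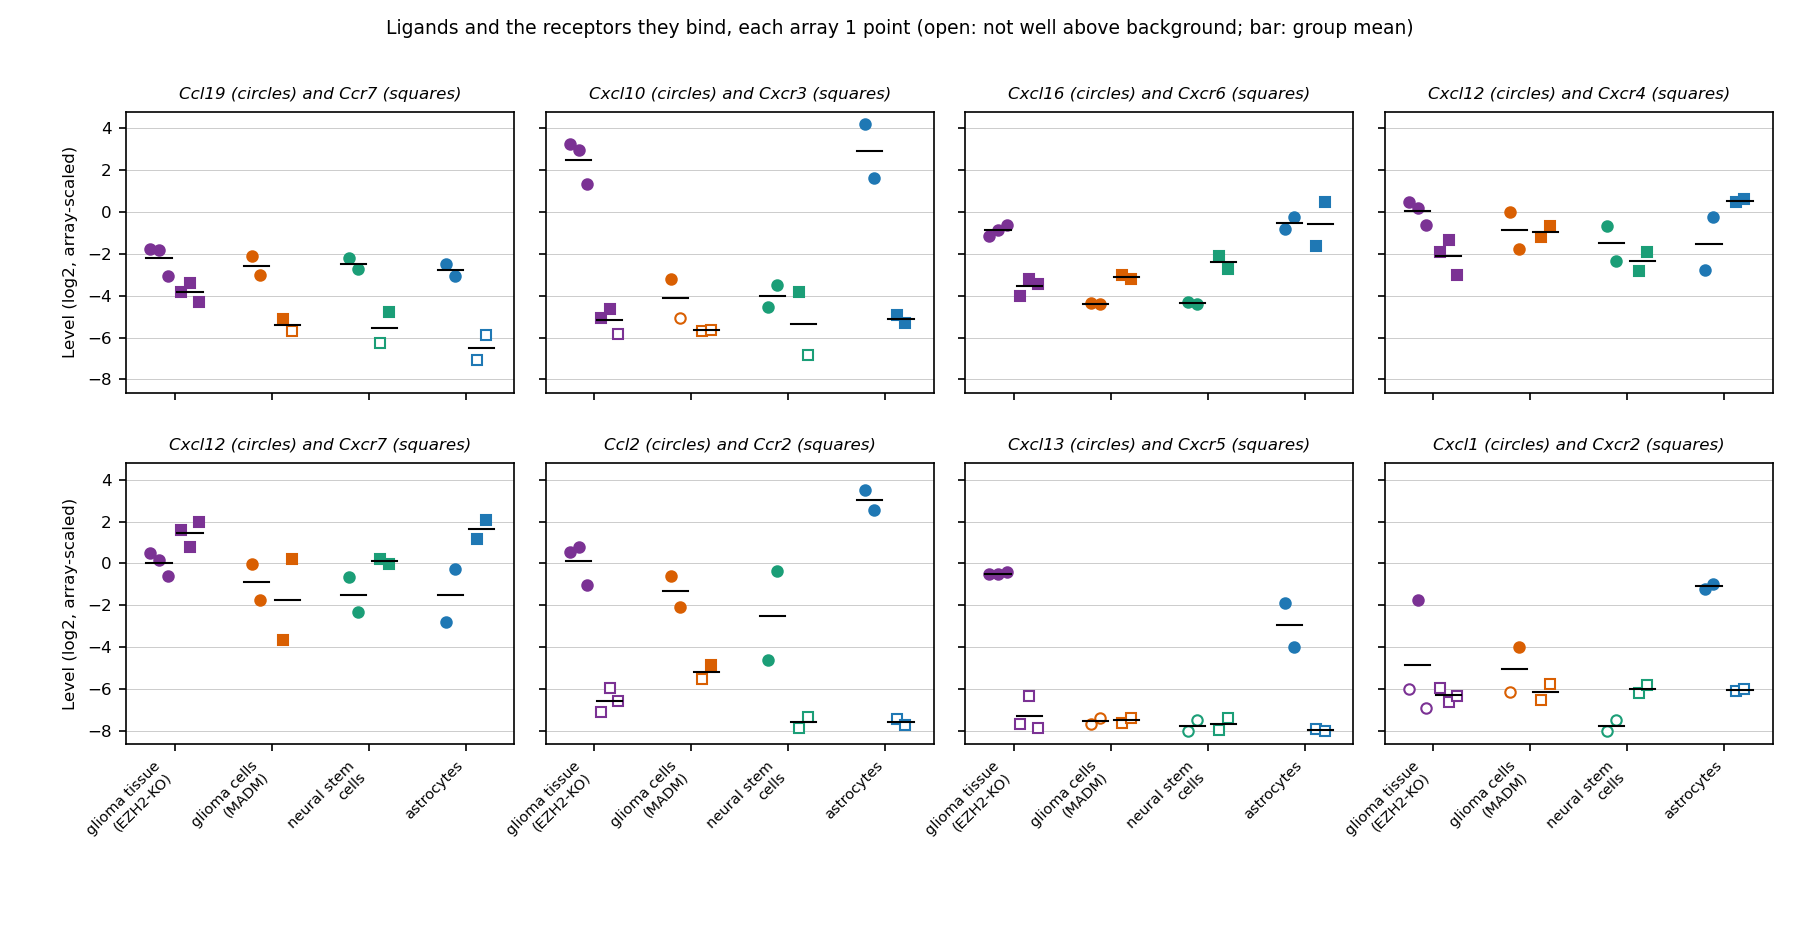
Level (vertical axis, log2 processed signal minus the array's 75th percentile) of a ligand (circles) and a receptor it binds (squares) on each of the 9 arrays, in 8 panels with groups along the horizontal axis; open symbols are not well above background and bars are group means (3 tissue arrays, 2 in each cell group). Cxcl10 lay between 1.33 and 3.24 on the tissue arrays and at -3.18 and -5.07 in glioma cells, while Ccr2 was measured on 1 of 9 arrays.

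Set together, the comparison of glioma cells with astrocytes had 1 of 32 tested members called higher and 14 called lower. That is 3.13% higher and 43.8% lower, against 9.74% and 9.63% of all 24868 genes tested. The one called higher was Ccl25, and the lower ones included 7 CC ligands and 6 CXC ligands. The median log2 difference was -2.95 over the members, or -2.54 with unmeasured values at their bound, and 0.19 over all genes. The arrays did not overlap for 2 members above and 23 below, against 41.3% and 28.3% of all genes. Calls for 8 members were kept without each array, among them Ccl25 upward, and Ccl3, Ccl6, Ccl8, Ccl12, Cxcl5 and Cxcl16 downward. Microglia and macrophage markers moved with these members, with 15 of 16 called lower in glioma cells. Fibroblast and meningeal markers were called lower for 6 of 12 (median difference -6.34) and astrocyte markers for 6 of 12 (median difference -2.58), while oligodendrocyte precursor markers were called higher for 8 of 12. The part of these lists in the result was not tested. With only probes measured on every array of the fit, the members tested were the 13 measured on all 9 arrays. Of these, 2 were called lower, against 1436 of all 20178 genes. Of the 14 above, Cxcl16 alone could be tested, and it kept its call. Ccl5 was newly called with limma (adjusted p = 0.0490).

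Neural stem cells against astrocytes gave 1 of 32 members called higher and 15 called lower, or 3.13% and 46.9%, against 7.15% and 7.76% of all genes. The lower ones included 7 CC ligands, 6 CXC ligands and Cxcr4, and Ccl25 was the higher one. The median was -3.08 over the members, -2.72 with bounds, and 0.24 over all genes. Groups did not overlap for 2 members above and 24 below, against 40.8% and 25.8% of all genes. Of the microglia and macrophage markers, 14 of 16 were called lower, as were 2 of 12 fibroblast and meningeal markers (median difference -4.33), and 8 of 12 oligodendrocyte precursor markers were called higher. Their part in the result was not tested. This comparison and the previous one share the astrocyte arrays. With the stricter filter, 4 of 13 members tested were called lower, against 1105 of all 20178 genes. They were Ccl5, Cxcl14, Cxcl16 and Cxcr4, which kept their calls. The others of the 15 were not measured on every array and could not be tested.

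Glioma cells against neural stem cells gave no called member among 32 with limma, where 0.680% of all genes were called higher and 0.318% lower. At an unadjusted p under 0.05 there were 6 of 32, a share near that of all genes, 3598 of 24868. They were Ccl25, Cxcr4, Cxcl1 and Cxcl14 above, Ccl3 below, and Ccl6, whose values have no order since none of the 4 arrays measured it. Ccl25 differed by 1.18 (SE 0.28, adjusted p = 0.148) and Cxcr4 by 1.43 (SE 0.40, adjusted p = 0.204). The median was -0.11 over the members and -0.04 over all genes. With all 9 arrays in 1 fit, 1 member was called higher, Cxcl14, and 1 lower, Ccl3.

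**Figure D3:**
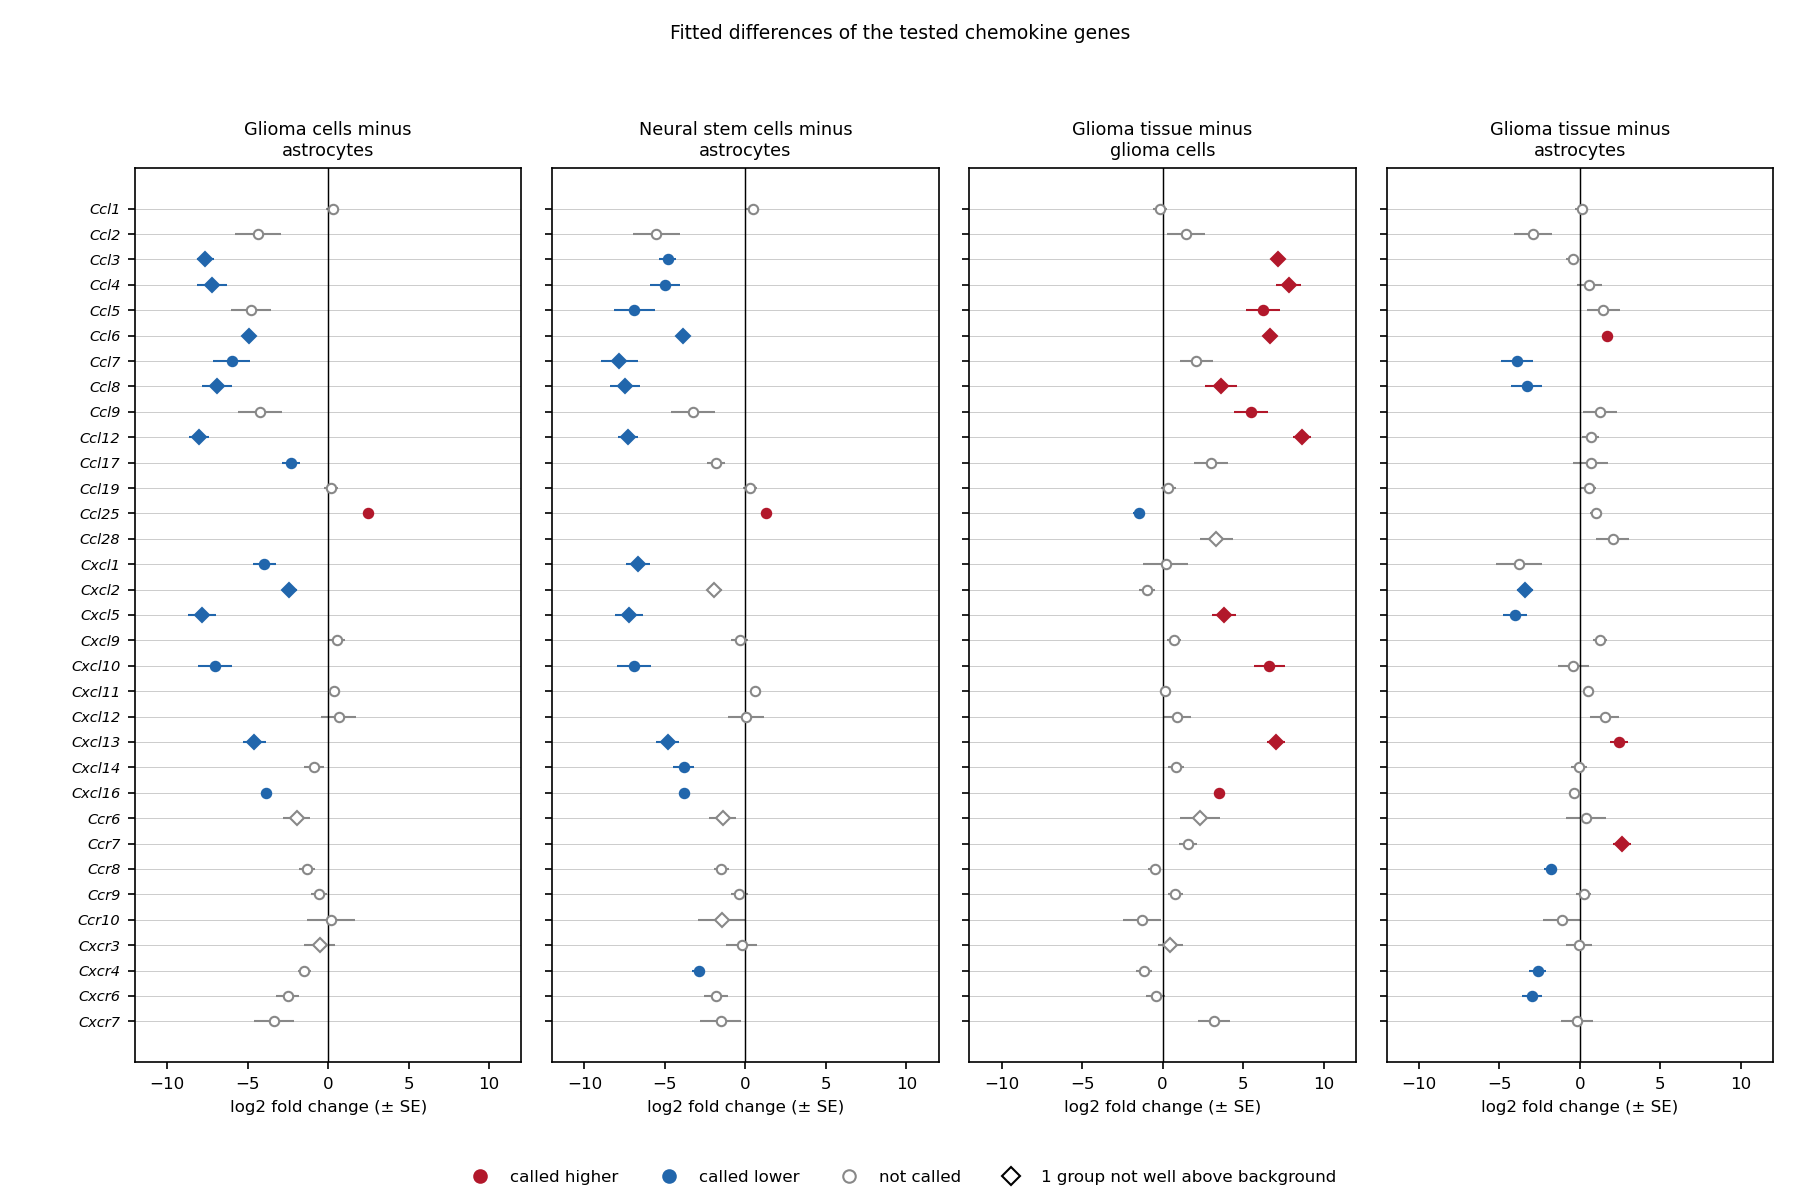
Fitted log2 fold change (horizontal axis, with SE bars) of tested chemokine genes (rows) in 4 comparisons; red is called higher, blue called lower and open not called, and a diamond marks a gene that 1 of the 2 groups did not measure on any array, whose fitted value is not a bound. Ccl25 is called higher in glioma cells minus astrocytes and lower in tissue minus glioma cells, with the called inflammatory ligands on the opposite side in both.

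Tissue against glioma cells had 12 of 34 members called higher and 1 lower, or 35.3% and 2.94%, against 7.65% and 10.0% of all 25398 genes tested. The higher ones included the CC ligands Ccl3, Ccl4, Ccl5, Ccl6, Ccl8, Ccl9 and Ccl12 and the CXC ligands Cxcl5, Cxcl10, Cxcl13 and Cxcl16. The lower one was Ccl25. The median was 1.83 over the members, 1.50 with bounds, and -0.20 over all genes. Arrays did not overlap for 17 members above and 3 below, against 20.3% and 35.3% of all genes. Calls for 10 members were kept without each array, and those of Ccl8, Cxcl5 and Ccl25 were not. Microglia and macrophage markers were called higher for 14 of 16 and endothelium and pericyte markers for 7 of 11 tested. Astrocyte markers were called higher for 6 of 12, neuron markers for 4 of 11, red blood cell transcripts for 3 of 4 and fibroblast and meningeal markers for 2 of 12. The part of these lists in the result was not tested. With the stricter filter, 2 of 13 members tested were called higher, against 887 of all 19567 genes. They were Ccl5 and Cxcl16, the only ones of the 12 that could be tested.

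Tissue against neural stem cells had 15 of 34 members called higher and none lower, or 44.1%, against 7.91% and 10.7% of all genes. They included 8 CC ligands and 6 CXC ligands, with a median of 2.26 over the members, 1.84 with bounds, and -0.25 over all genes. Groups did not overlap for 21 members above and 2 below, against 18.8% and 34.2% of all genes. Calls for 10 members were kept without each array. Microglia and macrophage markers were called higher for 15 of 16, endothelium and pericyte markers for 7 of 11 and red blood cell transcripts for 3 of 4, and their part in the result was not tested. The stricter filter left 3 of 13 members tested called higher, Ccl5, Cxcl14 and Cxcl16, against 1033 of all 19567 genes. No other of the 15 could be tested.

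Tissue against astrocytes was mixed. Of 34 members, 3 were called higher (8.82%) and 7 lower (20.6%), against 10.5% and 12.5% of all genes, so the higher share was near the background. Ccl6, Cxcl13 and Ccr7 were the higher ones. The lower ones were the ligands Ccl7, Ccl8, Cxcl2 and Cxcl5 and the receptors Ccr8, Cxcr4 and Cxcr6. Medians were 0.03 over the members and -0.06 over all genes, and arrays did not overlap for 8 members above and 12 below, against 27.1% and 30.9%. Calls were kept without each array for Cxcl2 and Cxcr6 only. Of the microglia and macrophage markers none was called in either direction, while 5 of 12 fibroblast and meningeal markers were called lower in tissue, with the astrocyte arrays themselves far apart on that list. Astrocyte markers were called lower for 3 of 12, and oligodendrocyte precursor markers were called higher for 9 of 12, neuron markers for 6 of 11, endothelium and pericyte markers for 4 of 11 and red blood cell transcripts for 3 of 4. The part of these lists in the result was not tested.

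Genes that lie next to each other on a chromosome were then read as blocks, joining members within 500000 bases on GRCm38.p6. In the chromosome 11 block Ccl5, Ccl9, Ccl6, Ccl3 and Ccl4, all 5 members were called higher in tissue than in glioma cells and than in neural stem cells, 3 were called lower in glioma cells than in astrocytes, and 1, Ccl6, differed between tissue and astrocytes. In the block Ccl2, Ccl7, Ccl11, Ccl12, Ccl8 and Ccl1, 2 of 5 tested members were called higher in tissue than in glioma cells, and 2, Ccl7 and Ccl8, were called lower in tissue than in astrocytes. The chromosome 5 block Cxcl5, Cxcl3, Cxcl15, Cxcl1 and Cxcl2 had 3 tested members, all lower in glioma cells than in astrocytes, and 2 of them, Cxcl5 and Cxcl2, lower in tissue than in astrocytes. Of all genes tested, 7.65% were called higher in tissue than in glioma cells, 7.91% higher in tissue than in neural stem cells, 9.63% lower in glioma cells than in astrocytes, and 10.5% higher and 12.5% lower in tissue than in astrocytes. Whether the blocks differ from each other was not tested.

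Other genes of the chemokine system were taken from a list of 20, of which 13 were on the array and 8 tested. Glioma cells against astrocytes had 0 of the 8 called higher and 3 lower, neural stem cells against astrocytes 0 and 2, tissue against glioma cells 4 and 0, tissue against neural stem cells 3 and 1, and tissue against astrocytes 2 and 0. Over all genes the shares higher and lower were 9.74% and 9.63% for glioma cells and 7.15% and 7.76% for neural stem cells, both against astrocytes. For tissue they were 7.65% and 10.0% against glioma cells, 7.91% and 10.7% against neural stem cells and 10.5% and 12.5% against astrocytes. Cx3cr1, the fractalkine receptor of microglia, averaged 3.77 in tissue, -6.56 in glioma cells, -2.27 in neural stem cells and 3.80 in astrocytes, and was not measured in glioma cells. Cx3cl1, its ligand, was lower in glioma cells than in astrocytes by a log2 difference of -3.53 (SE 0.55, adjusted p = 0.0153) and higher in tissue than in glioma cells by 3.85 (SE 0.55, adjusted p = 0.00437). The 2 called between tissue and astrocytes were the scavenging receptors Ackr1 (log2 difference 3.58, SE 0.98, adjusted p = 0.0350) and Ackr2 (log2 difference 2.53, SE 0.71, adjusted p = 0.0384), both higher in tissue.

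Genes that carry the receptor signal were called lower in glioma cells than in astrocytes for 7 of 24 tested and higher in tissue than in glioma cells for 10 of 25, with none in the opposite direction, against 9.63% and 7.65% of all genes. In neural stem cells 8 of 24 were called lower than in astrocytes and 10 of 25 lower than in tissue, against 7.76% and 7.91% of all genes. Between glioma cells and neural stem cells 0 of 24 were called, against 0.680% higher and 0.318% lower of all genes. Vav1, an exchange factor of blood cells, averaged 1.47 in tissue, -7.21 in glioma cells and 2.13 in astrocytes, and was not measured in glioma cells. In tissue against astrocytes 4 of 25 were called higher and 1 lower, against 10.5% and 12.5% of all genes, among them Fgr (log2 difference 2.01, SE 0.47, adjusted p = 0.0210) and the G protein subunit Gnai2 (log2 difference -1.15, SE 0.28, adjusted p = 0.0229).

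The 2 induction pathways were read through their own lists. Interferon response factors and targets were called lower in glioma cells than in astrocytes for 11 of 14 and higher in tissue than in glioma cells for 11 of 14. Between tissue and astrocytes 1 of 14 was called, lower in tissue. Of all genes, 9.63% were called lower in the first comparison, 7.65% higher in the second and 12.5% lower in the third. In neural stem cells 11 of 14 were called lower than in astrocytes and 13 of 14 lower than in tissue, against 7.76% and 7.91% of all genes. Between glioma cells and neural stem cells 1 of 14 was called, lower in glioma cells, against 0.318% of all genes. The mean level of the list was 1.86, 3.21 and 1.67 in tissue and -2.71 and -3.58 in glioma cells. It was -3.36 and -3.98 in neural stem cells and 2.51 and 1.09 in astrocytes, so tissue and astrocytes overlapped. Isg15, an interferon-induced ubiquitin-like protein, was lower in glioma cells than in astrocytes by -5.58 (SE 0.71, adjusted p = 0.00913). NF-kB and cytokine inducers were called lower in glioma cells than in astrocytes for 5 of 15 and higher in tissue than in glioma cells for 4 of 15. They were called lower in tissue than in astrocytes for 3 of 15. The shares of all genes were again 9.63%, 7.65% and 12.5%. In neural stem cells 6 of 15 were called lower than in astrocytes and 6 of 15 lower than in tissue, against 7.76% and 7.91% of all genes. Between glioma cells and neural stem cells 0 of 15 were called. Tnf, a cytokine that activates NF-kB, averaged -3.12 in tissue, -7.34 in glioma cells, -7.42 in neural stem cells and -0.97 in astrocytes, and was lower in tissue than in astrocytes by -2.15 (SE 0.46, adjusted p = 0.0158). The plot of list levels shows the microglia and interferon lists with the same high pair of groups, tissue and astrocytes. This pattern was not particular to those lists. NF-kB and cytokine inducers averaged -1.33 to -0.65 in tissue and -0.59 and 0.07 in astrocytes. They averaged -2.98 and -2.65 in glioma cells and -3.21 and -3.34 in neural stem cells. Genes that carry the receptor signal averaged 0.43 to 0.92 on tissue and astrocyte arrays and -1.67 to -0.82 on the other cell arrays.

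**Figure D4:**
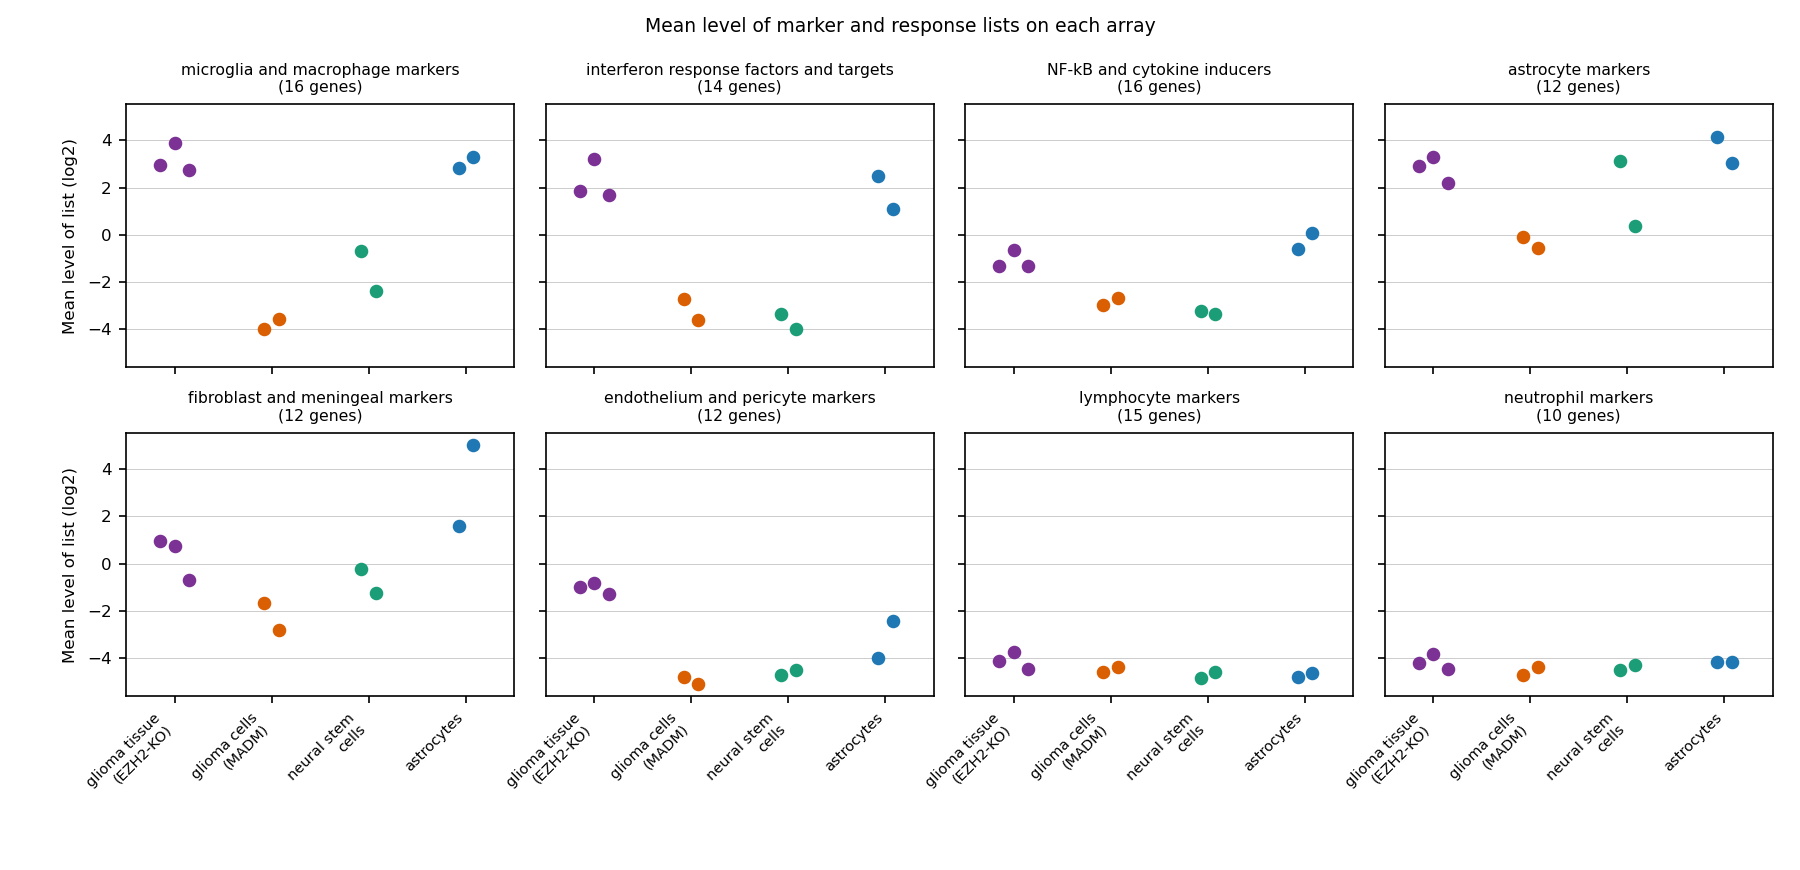
Mean level (vertical axis, log2 processed signal minus the array's 75th percentile) of 8 gene lists, 1 point per array, with the groups along the horizontal axis. The 16 microglia and macrophage markers averaged 2.73 to 3.90 on tissue arrays, -3.97 and -3.57 in glioma cells and 2.85 and 3.28 in astrocytes, while lymphocyte and neutrophil markers stayed between -4.84 and -3.74 on all 9 arrays.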

How the data were processed

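Spot signals in the deposited scanner files are linear intensity values, made with Agilent Feature Extraction 10.7.3.1 (tissue) or 10.7.1.1 (cells), per the file headers. Detection and outlier flags are other marks per spot, also as deposited per the file headers. The authors also deposited a table of log2 values. In each of its columns 99.2% to 100% of probes were within 0.01 of log2 processed signal, so it holds no step that aligns arrays, and it served as an alternative. Per the labels' protocols, 200 ng RNA was labelled with Cy3.

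Control spots and outlier spots (96 to 164 per array) were left out, spots of a probe were averaged, and log2 processed signals were centred on each array's 75th percentile. No spot was saturated. Where a gene had several probes, the brightest tested one stood for it. Probe positions are in mm9, and names and promoters come from RefSeq tables on GRCm38.p6. Fits used limma 3.58.1 (lmFit, eBayes) under R 4.3.3, on the 6 cell arrays (24868 genes, 3 residual degrees of freedom) or all 9 (25398 genes, 5), and were tested on simulated arrays. Tables and figures were made in Python 3.11.15 with pandas 2.3.3, numpy 2.4.6 and matplotlib 3.10.9. Values per array are given for members called in any of 6 comparisons and for set ligand and receptor pairs, other members by range, and up to 4 called genes of each other list. The members and lists were chosen with earlier results of these data known. Alternatives were normexp correction, quantile normalization, the unscaled table, filters, probe averaging, the replicate block, other samples in the fit and each array left out. The number of arrays limits the precision. Some items are not reported here.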

Additional observations from a re-analysis of the deposited data

How the results depend on the processing

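No called member changed direction under the settings run. For single members, 421 of 528 values with 1 array left out and 458 of 499 under other settings stayed on the same side of the threshold, and the others lost the call. With 1 array left out, the counts of members called higher and lower were 1 to 2 and 10 to 13 for glioma cells minus astrocytes, 0 and 0 for glioma cells minus neural stem cells, 0 and 10 to 14 for neural stem cells minus astrocytes, 11 to 13 and 0 to 1 for tissue minus glioma cells, 10 to 14 and 0 to 1 for tissue minus neural stem cells, and 1 to 4 and 4 to 7 for tissue minus astrocytes. Requiring detection on every array of the fit tests fewer genes, and most called members could not be tested. For glioma cells minus astrocytes it gave 2 lower, of which Cxcl16 kept its call and Ccl5 was newly called. It left 4 lower for neural stem cells minus astrocytes, 2 higher for tissue minus glioma cells and 3 higher for tissue minus neural stem cells. For tissue minus astrocytes it left 0 higher and 3 lower of 13 members tested, against 1815 and 2331 of all 19567 genes. With no filter, glioma cells minus astrocytes had 2 higher and neural stem cells minus astrocytes 0 higher, against 1733 and 1218 of all 34733 genes. In the fit of all 9 arrays glioma cells minus neural stem cells had 1 higher and 1 lower, and neural stem cells minus astrocytes 0 higher. Over all 25398 genes these counts were 265, 235 and 2938. Averaging a gene's probes gave 2 lower for tissue minus glioma cells and 1 lower for tissue minus neural stem cells, against 2376 and 2580 of all 25398 genes. Tissue minus glioma cells had 0 lower with the unscaled table, with quantile normalization and with only the arrays of those groups, and neural stem cells minus astrocytes 0 higher with the unscaled table. Over all genes these counts were 762, 2204, 2696 and 649. Members measured numbered 23 in glioma cells on at least 1 array, and 27 in glioma cells and 33 in neural stem cells by the scanner's weaker flag. Beyond fewer genes or arrays, the cause was not tested.

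Whether same-numbered arrays share more than the number could not be told. Deviations of same-numbered arrays correlated by -0.21 to 0.17. In a group of 2 arrays the deviations mirror each other, so these correlations can neither show nor exclude a pairing. With the replicate number as a block, tissue minus glioma cells had 10 higher and 0 lower, tissue minus astrocytes 2 higher and 4 lower, tissue minus neural stem cells 12 higher, glioma cells minus astrocytes 1 higher and 14 lower, and neural stem cells minus astrocytes 0 higher and 15 lower. All genes called higher and lower then numbered, in this order, 1446 and 1269 (1944 and 2544 without the block), 1537 and 1699 (2669 and 3177), and 1384 higher (2010). For the last 2 comparisons they were 2066 and 2267 (2421 and 2396), and 1285 and 1755 (1777 and 1929). A slide or scan block could not be fitted.

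Without scaling between arrays the median difference of all genes was -0.29 in place of 0.19 for glioma cells minus astrocytes, -0.19 in place of 0.24 for neural stem cells minus astrocytes, 0.38 in place of -0.20 for tissue minus glioma cells, 0.29 in place of -0.25 for tissue minus neural stem cells, and 0.04 in place of -0.06 for tissue minus astrocytes. The share of all calls that were higher was then 30.0% in place of 50.3%, 24.1% in place of 47.9%, 79.6% in place of 43.3% and 77.7% in place of 42.6% in the first 4 of these. Normexp used the median spot signal for tissue comparisons, chosen after seeing the data since those files hold no mean signal. Normexp ended the calls of 3 members for glioma cells minus astrocytes (Ccl17, Cxcl13, Cxcl2), 1 for neural stem cells minus astrocytes (Cxcl13), 2 for tissue minus glioma cells (Ccl8, Cxcl5), 4 for tissue minus neural stem cells (Ccl7, Ccl8, Cxcl5, Cxcl9) and 2 for tissue minus astrocytes (Ccr7, Ccr8). With it Ccl12 in glioma cells minus astrocytes was -4.12 in place of -8.0 and kept its call. Folds with unmeasured arrays raised to the lowest level measured on them were added after seeing the data.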

Other observations

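Levels stood apart on single arrays for a few members. Cxcl15 read 0.67 on astrocyte array 2 and -7.77 on astrocyte array 1, Ccr10 read -1.95 on glioma cell array 2 and -6.56 on glioma cell array 1, and Ccl26 read -3.86 on tissue array 2 and -7.66 and -7.82 on the other tissue arrays. Ccr6 on tissue array 1, at -1.40, was above every other array. Red blood cell transcripts averaged 1.18, -1.69 and 0.83 in tissue and between -5.81 and -5.04 in all cell groups. Neuron markers averaged 3.32, 2.28 and 2.07 in tissue, -0.32 and 0.72 in glioma cells, 1.29 and 0.84 in neural stem cells, and -0.38 and -0.84 in astrocytes.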
